A study of Mus musculus with 6 samples.

Results

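Integrins are the main receptors by which a macrophage holds on to matrix and to other cells, and 10 of their subunit genes, all with known roles in macrophages, were followed in LPS-treated bone marrow-derived macrophages (BMDMs). The 10 genes are Itgam, Itgal, Itgax and Itgb2 of the leukocyte β2 family, Itgb1 with its partners Itga4, Itga5 and Itga6, and Itgav with Itgb5. Their rows were taken by symbol, from a list drawn up with earlier results of these data known. They correspond to 11 of the 52550 gene models of the count table, because Itgam is listed under 2 models, and all 11 models passed the filter on low counts that kept 16287 models.

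The libraries were made from mRNA of 3 GIT1 CKO and 3 GIT1 fl/fl BMDM samples, which the paper calls biological replicates. GIT1 CKO mice are C57BL/6 mice with the floxed Git1 gene and Cre driven by Lyz2, which is active in the whole myeloid lineage and not in macrophages alone. GIT1 fl/fl mice, labelled CWT by the submitters, carry the floxed gene without Cre. Marrow cells of both groups were grown in 25 ng/mL of M-CSF over 7 days and treated with 100 ng/mL of LPS, so no untreated BMDMs are part of the comparison. No source used here gives the age of the marrow donors or the hours of LPS.

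An integrin is a pair of 1 α and 1 β subunit that spans the membrane, binds ligands outside the cell and is coupled to actin through talin and kindlin at the β tail. The β2 integrins are restricted to leukocytes. Itgal (αL) with Itgb2 forms LFA-1, which binds ICAM proteins, Itgam (αM) with Itgb2 forms Mac-1 or complement receptor 3, the CD11b antigen of macrophages, and Itgax (αX) with Itgb2 forms complement receptor 4, the CD11c antigen. Itgb1 pairs with Itga4 to bind VCAM-1 and fibronectin, with Itga5 to bind fibronectin and with Itga6 to bind laminin. Itgav with Itgb5 binds vitronectin and takes part in the uptake of apoptotic cells. GIT1 itself binds paxillin, an adaptor that binds the Itga4 tail. The comparison asks how the mRNA of these subunits differed between BMDMs of mice bred to lack GIT1 in myeloid cells and floxed controls.

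The libraries held 81131281 to 157485640 counts in GIT1 CKO, against 61895190 to 68083745 counts in GIT1 fl/fl BMDMs. Counts over the whole Git1 gene gave 72.8, 74.5 and 73.8 CPM (counts over the library total, scaled by TMM) in GIT1 CKO replicates 1, 2 and 3, against 71.9, 103 and 82.2 CPM in GIT1 fl/fl libraries 1, 2 and 3, a log2 difference of -0.22 (adjusted p = 0.447, edgeR). No source used here states the exons that Cre removes, so these counts do not check the deletion. Lyz2, the gene whose promoter drives Cre, stood at 15379 to 16947 CPM in GIT1 CKO, against 31760 to 39522 CPM in GIT1 fl/fl libraries, a log2 fold change of -1.14 (adjusted p = 0.0153, edgeR). Y-linked transcripts (Kdm5d, Uty, Ddx3y and Eif2s3y) summed to 0 to 0.0248 CPM in GIT1 CKO, against 26.4 to 81.5 CPM in GIT1 fl/fl libraries. Xist was at 1051 to 1111 CPM in GIT1 CKO, against 226 to 607 CPM in GIT1 fl/fl libraries, so the sex of the donors cannot be told apart from the genotype. Each GIT1 fl/fl library thus held both Xist and Y-linked transcripts, and whether it pooled donors of both sexes was not tested. GIT1 fl/fl replicate 2 stood apart from the other 5 libraries in its dependence on GC content. A gene's level relative to the other libraries followed its GC content with a Spearman's rho of 0.65 in this library, and of -0.42 to 0.20 in the others, over all genes tested.

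The macrophage markers were present in every library, with a sum over 8 genes of 13075 to 13197 CPM in GIT1 CKO, against 12523 to 13888 CPM in GIT1 fl/fl BMDMs. The neutrophil list summed to at most 2.85 CPM in GIT1 CKO, against at most 4.14 CPM in GIT1 fl/fl libraries, the dendritic cell list to at most 3.17 CPM in GIT1 CKO, against at most 4.08 CPM in GIT1 fl/fl, and the megakaryocyte list to at most 5.76 CPM in GIT1 CKO, against at most 6.04 CPM in GIT1 fl/fl. The endothelial list summed to 30.4 to 31.3 CPM in GIT1 CKO, against 39.1 to 51.5 CPM in GIT1 fl/fl libraries. Most of the endothelial sum was Vwf, at 25.3 to 26.0 CPM in GIT1 CKO, against 35.8 to 48.3 CPM in GIT1 fl/fl. Emcn (0.797 to 0.919 CPM in GIT1 CKO, against 0.0596 to 0.534 CPM in GIT1 fl/fl) went the other way. So did Cldn5 (0.249 to 0.298 CPM in GIT1 CKO, against 0 to 0.0648 CPM in GIT1 fl/fl), and Kdr, Cdh5 and Tek overlapped. The fibroblast list summed to 33.7 to 38.4 CPM in GIT1 CKO, against 27.8 to 33.9 CPM in GIT1 fl/fl libraries. The osteoclast list summed to 1407 to 1444 CPM in GIT1 CKO, against 941 to 1237 CPM in GIT1 fl/fl libraries. Most of the osteoclast sum was Mmp9, and Calcr was at 0 counts in all 6 libraries. No tested gene of these lists passed, and the others were too low to test. Tested were 8 of 8 macrophage, 1 of 10 neutrophil, 5 of 7 dendritic cell and 3 of 6 megakaryocyte genes. Of the endothelial genes 5 of 6 were tested, of the fibroblast genes 6 of 7 and of the osteoclast genes 5 of 7. The part of these sums in the results was not tested.

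The genes of the 3 α subunits that pair with Itgb2 lie near each other on chromosome 7 of GRCm38, the build that the coordinates of the table match. Itgal is at chr7:127296260-127335138, the first Itgam model at chr7:128062640-128118491, the second at chr7:128062683-128128160 and Itgax at chr7:128129547-128150657, all on the plus strand. Itgal ends 727.5 kb before Itgam, and Itgax starts 1.39 kb after the second Itgam model. Itga6 (chr2:71745616-71858416), Itga4 (chr2:79255426-79333123) and Itgav (chr2:83724397-83806916) share chromosome 2 and its plus strand. Itgb1 is at chr8:128685654-128733200, Itgb2 at chr10:77530252-77565708 and Itgb5 at chr16:33829665-33949153 on the plus strand, and Itga5 at chr15:103344286-103366763 on the minus strand.

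The 2 Itgam models have to be read together. Of their exon bases (5024 in the first and 4803 in the second), 3450 are shared, which is 68.7% of the first and 71.8% of the second. The second model is named Gm49368 in GENCODE M21. Its transcript joins the same next-to-last exon, ending at base 128116846, to another last exon that starts at base 128126808, while the last exon of Itgam itself starts at base 128117306. Both 40-base junctions are shown from the GENCODE M21 transcripts because only reads that reach into the capitals, or into other unshared bases, tell the models apart. Small letters mark the last 20 bases of the shared exon, and capitals mark the first 20 coding bases of each last exon.
First Itgam model: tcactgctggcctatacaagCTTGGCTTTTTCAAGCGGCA
Second Itgam model: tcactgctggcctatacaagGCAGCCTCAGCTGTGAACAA

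RefSeq promoters (GRCm38.p6, 250 bases before to 50 after the start of the gene) were matched for 7 of the 10 genes. No entry was matched for Itgal, Itgb2 or Itga6. The promoters of the neighbours Itgam and Itgax are printed because both are myeloid genes and Itgam was by far the more abundant. Neither gene passed the test between the groups, and a link of these sequences to the levels was not tested. Capitals mark GAGGAA or its complement TTCCTC, a core that the myeloid factor PU.1 binds, searched on both strands. The core was found in 28.3% of all 32851 promoters of the same length and in 4 of the 7 matched here (Itgam, Itgb1, Itga5 and Itgav). Itgam held 3 matches, the first of them starting 84 bases before the start of the gene and another 15 bases before it. Neither Itgax, Itga4 nor Itgb5 had a match, which says only that these letters are not in the window.
Itgam promoter, chr7:128062390-128062689, plus strand: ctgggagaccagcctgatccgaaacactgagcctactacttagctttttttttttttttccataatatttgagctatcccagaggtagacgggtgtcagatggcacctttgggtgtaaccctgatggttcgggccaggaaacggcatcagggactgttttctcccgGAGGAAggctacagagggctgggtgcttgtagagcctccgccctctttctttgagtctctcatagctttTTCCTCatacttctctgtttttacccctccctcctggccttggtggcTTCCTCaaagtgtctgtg
Itgax promoter, chr7:128129300-128129599, plus strand: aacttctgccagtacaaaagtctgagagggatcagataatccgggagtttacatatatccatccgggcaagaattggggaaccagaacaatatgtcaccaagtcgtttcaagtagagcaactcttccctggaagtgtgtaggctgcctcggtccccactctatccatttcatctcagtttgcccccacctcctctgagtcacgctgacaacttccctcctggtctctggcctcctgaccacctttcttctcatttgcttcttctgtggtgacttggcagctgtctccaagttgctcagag

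Per kb of exon, Itgam was the most abundant of the 10 genes and Itgav the least. The CPM per kb of both Itgam models together were 304 ± 8.34 in GIT1 CKO, against 274 ± 21.4 in GIT1 fl/fl BMDMs (mean ± SD, n = 3 each). Itgb2 followed at 229 ± 2.64 in GIT1 CKO, against 208 ± 28.2 in GIT1 fl/fl, and Itgb1 at 143 ± 2.97 in GIT1 CKO, against 113 ± 34.5 in GIT1 fl/fl. Itgb5 was at 73.3 ± 4.53 in GIT1 CKO, against 83.1 ± 7.57 in GIT1 fl/fl, and Itga4 at 37.4 ± 2.16 in GIT1 CKO, against 29.6 ± 15.8 in GIT1 fl/fl. The lower end of the order was made of Itga6, Itga5, Itgal, Itgax and Itgav. Itga6 led it at 18.6 ± 0.444 in GIT1 CKO, against 21.0 ± 2.82 in GIT1 fl/fl, and Itgav closed it at 3.19 ± 0.798 in GIT1 CKO, against 3.29 ± 1.08 in GIT1 fl/fl. In GIT1 CKO BMDMs no pair of neighbours in this order overlapped between libraries. In GIT1 fl/fl BMDMs 2 pairs did, namely Itgb1 with Itgb5 and Itga4 with Itga6. Itgal and Itgax changed places without overlap in either group, with Itgal at 10.9 ± 0.165 and Itgax at 6.02 ± 0.103 in GIT1 CKO, against Itgal at 5.23 ± 0.625 and Itgax at 7.46 ± 0.527 in GIT1 fl/fl. Exon length here is the union of all annotated exons, and the order over all libraries was the same with the length of the longest transcript. The Itgam value takes reads on the bases that its models share as counted once, which no source used here states.

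**Figure D1:**
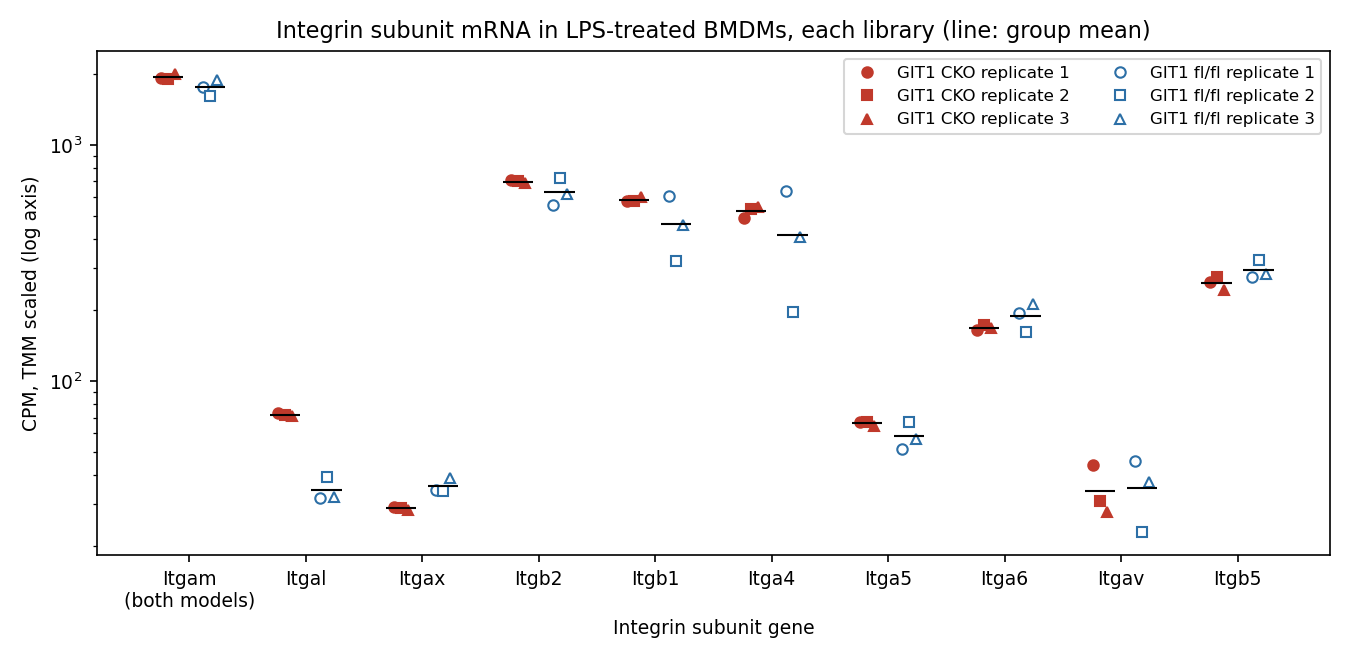
CPM of each of the 10 integrin genes (x axis, the 2 Itgam models added) in each library on a log axis, GIT1 CKO filled and left, GIT1 fl/fl open and right, with the group mean as a line. Itgal is separated between the groups, at 70.8 to 72.9 CPM in GIT1 CKO, against 31.8 to 39.1 CPM in GIT1 fl/fl, while Itga4 and Itgb1 spread widely within GIT1 fl/fl.

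Itgal, the α subunit of LFA-1, was the 1 member that changed in the comparison of the counts as deposited, while removal of the GC trend added Itgb2 and Itga5. With that trend removed, 807 of all 16287 models tested passed in either direction, against 123 for the counts as deposited. Itgal stood at 72.9, 71.6 and 70.8 CPM in GIT1 CKO replicates 1, 2 and 3, against 31.8, 39.1 and 32.2 CPM in GIT1 fl/fl libraries 1, 2 and 3. Every GIT1 CKO library was above every GIT1 fl/fl library, and the gap between the groups was wider than the range within either. Itgal rose 2.09-fold in GIT1 CKO BMDMs (95% interval 1.73 to 2.52), a log2 fold change of 1.06 (SE, the standard error, 0.115, adjusted p = 0.0215 over all genes in the quasi-likelihood F-test of edgeR). Of all genes tested, 0.485% passed the same threshold as higher in GIT1 CKO, 0.27% as lower and 0.755% in either direction. Among the 11 member models the counts were 1 higher and 0 lower, and at an unadjusted p under 0.05 there were 1 higher and 1 lower, which was Itgax, against 17.5% of all genes at that p in either direction. Under the study's rule (a fold of more than 1.5 and p under 0.05 before adjustment) Itgal alone passed, against 6.48% of all genes that passed as higher, 2.14% as lower and 8.62% in either direction. The median log2 fold change was 0.14 over the member models and 0.01 over all genes. The direction of Itgal was the same in all 19 alternatives, at 1.01 to 1.19 on the log2 scale. Its adjusted p lost the threshold when a library was left out, at 0.160, 0.167 and 0.0574 without GIT1 CKO replicates 1, 2 and 3 and at 0.163 without GIT1 fl/fl replicate 3.

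Lymphocytes express Itgal strongly, and in bulk mRNA more cells of a type and more RNA per cell cannot be told apart. The T and NK cell list of 8 genes summed to 27.1 to 31.7 CPM in GIT1 CKO, against 19.7 to 22.5 CPM in GIT1 fl/fl libraries. Nearly all of that sum was Cd4. The defining markers Cd3e, Cd3d and Cd3g were at or near 0, with at most 5 counts (0.0623 CPM) in a library, and Cd3g had 0 counts in every library. The B cell list of 5 genes summed to 18.0 to 19.4 CPM in GIT1 CKO, against 13.0 to 15.6 CPM in GIT1 fl/fl libraries, nearly all of it Cd79b. Without genes of chromosomes X and Y, a setting added once the data had been seen, the log2 fold change of Itgal was 1.07 (adjusted p = 0.0199 from edgeR). Itgal lies on chromosome 7, so this setting alters only the scaling, the shared variance estimates and the adjustment. An effect of donor sex on Itgal was not tested.

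Itgax did not pass the test. It stood at 29.4, 29.0 and 28.4 CPM in GIT1 CKO replicates 1, 2 and 3, against 34.6, 34.1 and 38.7 CPM in GIT1 fl/fl libraries 1, 2 and 3. Each GIT1 CKO library was below the lowest GIT1 fl/fl library. The log2 fold change was -0.31 (SE 0.0982, adjusted p = 0.201 from edgeR), with a 95% interval of -0.54 to -0.07 on the log2 scale before any adjustment. Libraries of the groups were apart in this way, with GIT1 CKO lower, in 15.1% of all genes tested, and among the member models in 2, Itgax and Itgb5. They were apart with GIT1 CKO higher in 13.6% of all genes and in 1 member model, Itgal.

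Itgam, the most abundant member, was divided between its models in a way that varied from library to library. The first model had 1111, 1656 and 1427 CPM in GIT1 CKO, against 1144, 1155 and 1274 CPM in GIT1 fl/fl libraries. The second had 805, 246 and 573 CPM in GIT1 CKO, against 620, 450 and 603 CPM in GIT1 fl/fl libraries. The groups overlapped in both models, and GIT1 CKO replicate 2 was highest in the first and lowest in the second. The second model took 42.02%, 12.9% and 28.6% of the counts of both in GIT1 CKO, against 35.1%, 28.0% and 32.1% in GIT1 fl/fl libraries, which did not separate the groups (p = 0.8, two-sided exact permutation test). Neither model passed the test, with log2 fold changes of 0.23 (SE 0.153, adjusted p = 0.450) and -0.04 (SE 0.399, adjusted p = 0.960 from edgeR). Without GIT1 CKO replicate 2 the first model was at 0.09 and the second changed sign, at 0.31, and without GIT1 CKO replicate 1 they were at 0.37 and -0.44.

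Added together, the Itgam counts were steady. Their sum was 1917, 1902 and 2000 CPM in GIT1 CKO, against 1764, 1605 and 1877 CPM in GIT1 fl/fl libraries, a coefficient of variation of 2.74% in GIT1 CKO, against 7.80% in GIT1 fl/fl. Every GIT1 CKO library was above every GIT1 fl/fl library, the nearest at 1902 and 1877 CPM. The sum had a log2 fold change of 0.15 (SE 0.0898, 95% interval -0.06 to 0.36, adjusted p = 0.414 from edgeR), which did not pass the test. An exact permutation test of the same sums, two-sided, gave p = 0.1, the smallest value that 3 against 3 libraries allow.

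**Figure D2:**
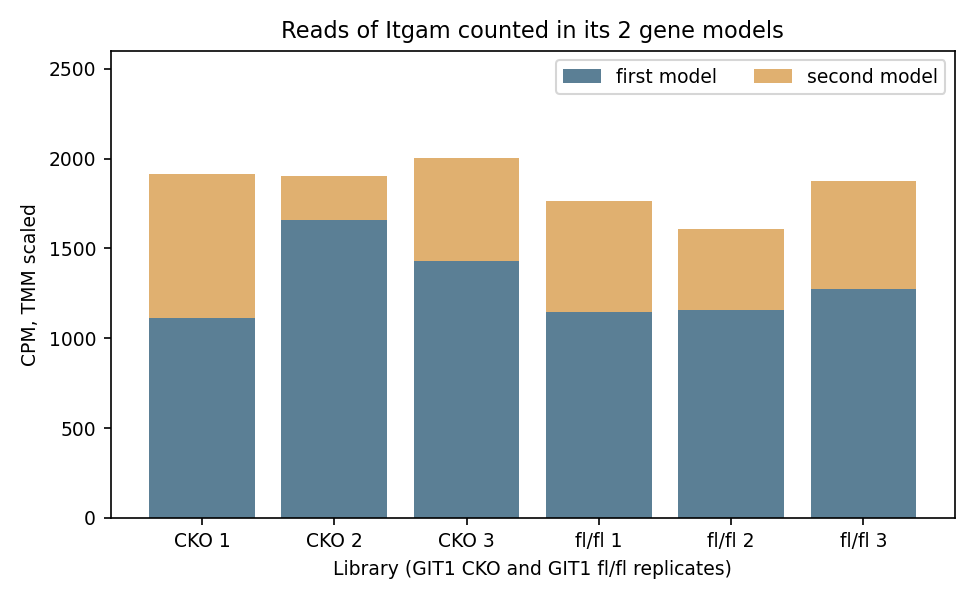
CPM counted in the first (lower part of the bar) and second (upper part) Itgam model in each library, with the 3 GIT1 CKO libraries left of the 3 GIT1 fl/fl libraries. The bars reach 1902 to 2000 CPM in GIT1 CKO, against 1605 to 1877 CPM in GIT1 fl/fl, while the upper part takes between 12.9% and 42.02% of the bar.

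Itgb2, the β chain that all 3 α subunits share, did not pass the test. It stood at 707, 699 and 691 CPM in GIT1 CKO, against 556, 726 and 619 CPM in GIT1 fl/fl libraries, so the groups overlapped through GIT1 fl/fl replicate 2. The log2 fold change was 0.14 (SE 0.114, 95% interval -0.13 to 0.41, adjusted p = 0.527 from edgeR). With replicate 1 of GIT1 fl/fl left out it was 0.05, with replicate 2 left out 0.28, and neither passed. Removal of each library's GC trend gave 0.26, which passed (adjusted p = 0.0409), and did not with the replicate number as a block as well (adjusted p = 0.160).

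The share of Itgal among the β2 α chains did not overlap between the groups. Per kb, Itgal made up 3.40% ± 0.125 of the sum of Itgam, Itgal and Itgax in GIT1 CKO, against 1.84% ± 0.356 in GIT1 fl/fl BMDMs, while Itgam made up 94.7% in GIT1 CKO, against 95.6% in GIT1 fl/fl (SD, n = 3 each). Ratios taken within a library do not depend on how the libraries are scaled. These shares and the ratios with Itgam do depend on how reads on the bases shared by its models were counted. The ratio of Itgal to Itgax was 1.82, 1.80 and 1.82 in GIT1 CKO, against 0.673, 0.838 and 0.608 in GIT1 fl/fl libraries, a log2 difference of 1.37. The ratio of Itgam to Itgal was 27.1, 27.4 and 29.1 in GIT1 CKO, against 57.1, 42.3 and 60.0 in GIT1 fl/fl libraries. The groups did not overlap in either ratio, nor in Itgam to Itgax, at 49.1 to 53.1 in GIT1 CKO, against 35.4 to 38.4 in GIT1 fl/fl. Each gave p = 0.1 in a two-sided exact permutation test, the smallest possible, and 0.275 after adjustment over the 11 ratios compared, so none could pass. The sum of the 3 α chains relative to Itgb2 was 1.40 ± 0.0497 in GIT1 CKO, against 1.40 ± 0.254 in GIT1 fl/fl (SD, n = 3 each), a log2 difference of 0.02 that the spread exceeds.

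**Figure D3:**
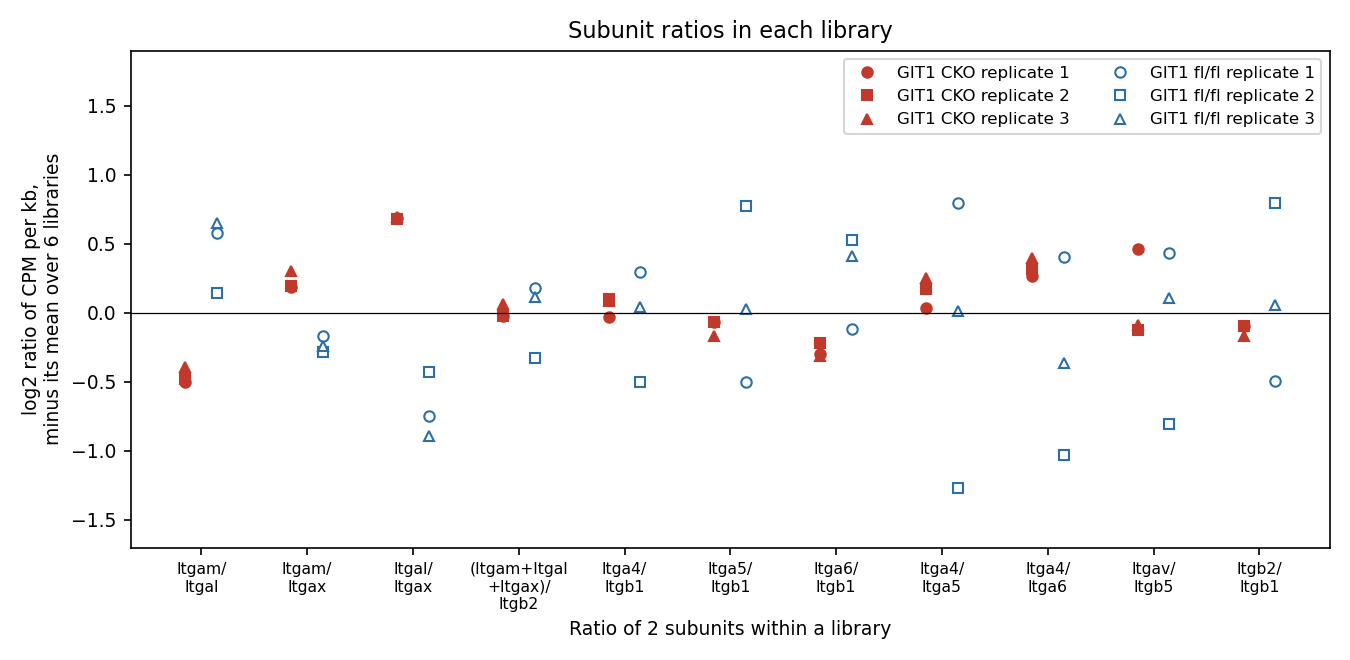
Log2 ratio of 2 subunits (CPM per kb) in each library, minus the mean of that ratio over the 6 libraries, with GIT1 CKO filled and left and GIT1 fl/fl open and right. The 3 ratios of β2 α chains and Itga6 to Itgb1 separate the groups, Itgal to Itgax by 1.37, and the other 7 ratios overlap.

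Itgb1, the most widely shared β chain, and Itga4 had the same appearance, steady in GIT1 CKO and scattered in GIT1 fl/fl BMDMs. Itgb1 stood at 580, 576 and 599 CPM in GIT1 CKO, against 604, 322 and 458 CPM in GIT1 fl/fl libraries 1, 2 and 3. Itga4, the α chain of the VCAM-1 receptor, stood at 489, 533 and 547 CPM in GIT1 CKO, against 637, 196 and 407 CPM in GIT1 fl/fl libraries 1, 2 and 3. In both genes GIT1 fl/fl replicate 1 was the highest of all 6 libraries and replicate 2 the lowest. The log2 fold changes were 0.34 (SE 0.216, adjusted p = 0.434) for Itgb1 and 0.34 (SE 0.382, adjusted p = 0.651 from edgeR) for Itga4, and neither passed. The 95% interval of Itga4, -0.58 to 1.25, covers values of both signs and reaches above the value of Itgal. Without GIT1 fl/fl replicate 2, Itga4 was at 0.03 and Itgb1 at 0.16, and they were at 0.79 and 0.58 on the log2 scale when GIT1 fl/fl replicate 1 was the one left out. The 3' end of Itga4 shares 1124 exon bases with Cerkl on the other strand, so reads of the 2 genes may not be told apart. Models that overlap Itga5, Itga6 and Itgav held at most 24 counts in a library. Cerkl counts were 12.8% to 13.5% of the Itga4 counts in GIT1 CKO, against 8.72% to 14.1% in GIT1 fl/fl libraries.

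Itga5 and Itga6, which bring Itgb1 to fibronectin and laminin, were less scattered. Itga5 stood at 67.3, 66.7 and 64.7 CPM in GIT1 CKO, against 51.7, 66.7 and 56.6 CPM in GIT1 fl/fl libraries. Its log2 fold change was 0.18 (SE 0.119, adjusted p = 0.443 from edgeR), and of the settings run it passed only with the GC trend removed, at 0.33 (adjusted p = 0.0247, and 0.142 with the replicate block as well). Itga5 was at 0.10 with replicate 1 of GIT1 fl/fl left out and at 0.32 with replicate 2 left out. Itga6 stood at 164, 172 and 168 CPM in GIT1 CKO, against 194, 162 and 212 CPM in GIT1 fl/fl libraries, a log2 fold change of -0.17 (SE 0.117, adjusted p = 0.469 from edgeR) that was -0.06 without GIT1 fl/fl replicate 3. Both overlapped between the groups. The ratio of Itga6 to Itgb1 did not overlap, at 0.128, 0.135 and 0.127 in GIT1 CKO, against 0.145, 0.227 and 0.209 in GIT1 fl/fl libraries (exact permutation p = 0.1, adjusted p = 0.275). The ratios of Itga4 to Itgb1, Itga5 to Itgb1, Itga4 to Itga5, Itga4 to Itga6, Itgav to Itgb5 and Itgb2 to Itgb1 all overlapped between the groups.

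Neither vitronectin receptor subunit passed the test. Itgav stood at 44.1, 30.9 and 28.0 CPM in GIT1 CKO, against 45.7, 22.8 and 37.4 CPM in GIT1 fl/fl libraries, with a log2 fold change of -0.04 (SE 0.288, 95% interval -0.73 to 0.65, adjusted p = 0.948 from edgeR). Its sign turned with the libraries used, at -0.26 without GIT1 CKO replicate 1 and 0.19 when GIT1 fl/fl replicate 1 was left out, and also under total-count scaling (0.006). Itgb5 stood at 262, 275 and 243 CPM in GIT1 CKO, against 276, 326 and 283 CPM in GIT1 fl/fl libraries, just apart between the groups. Its log2 fold change was -0.18 (SE 0.103, adjusted p = 0.389 from edgeR). It shrank to -0.08 when GIT1 fl/fl replicate 2 was left out. Removal of the GC trend left -0.04, and the log2 CPM then overlapped, at 8.001 to 8.16 in GIT1 CKO, against 8.05 to 8.22 in GIT1 fl/fl libraries.

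With the Itgam models added, the coefficient of variation was smaller among GIT1 CKO libraries for each of the 10 genes, with medians of 2.24% in GIT1 CKO, against 13.3% in GIT1 fl/fl. Taken singly, both Itgam models went the other way. The first was at 19.6% in GIT1 CKO, against 6.02% in GIT1 fl/fl, and the second at 51.9% in GIT1 CKO, against 16.8% in GIT1 fl/fl. Of all genes tested with a mean above 0 in both groups, 77.4% had a smaller coefficient in GIT1 CKO. The medians there were 8.36% in GIT1 CKO, against 19.97% in GIT1 fl/fl, and the difference in spread was not tested. In GIT1 fl/fl replicate 2, the 6 genes Itga4, Itgav, Itgb1, Itga6, Itgam and Itgax were below both other GIT1 fl/fl libraries, and Itgal, Itgb2, Itga5 and Itgb5 were above both. That division followed GC content, from 41.1% in Itga4 to 51.6% in Itgax for the lower 6 and from 53.1% in Itgb2 to 57.3% in Itga5 for the other 4. Relative to the mean of replicates 1 and 3 on the log2 scale, replicate 2 was at -1.38 for Itga4, -0.86 for Itgav, -0.71 for Itgb1, 0.29 for Itgal and 0.31 for Itgb2. Over the 10 genes Spearman's rho between GC content and this deviation was 0.92, a description of genes that share 1 library. The median of all genes tested was -0.84 at a GC content of 40% to 42% and 0.36 at 56% to 58%. Removal of the GC trend brought the log2 fold change of Itga4 to 0.02 and that of Itgal to 1.18 (SE 0.0619, adjusted p = 0.00102 from edgeR).

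**Figure D4:**
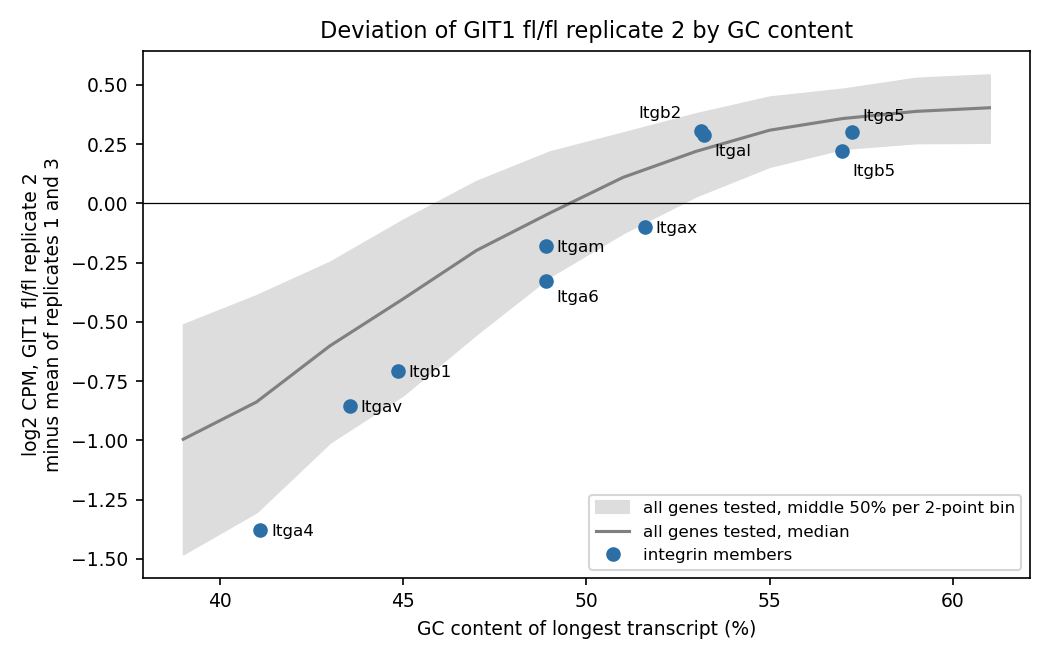
Log2 CPM of GIT1 fl/fl replicate 2 minus the mean of GIT1 fl/fl replicates 1 and 3 (y axis) against the GC content of the longest transcript (x axis), for the 10 integrin genes as points and all genes tested as the median and middle 50% per bin. Itga4, with 41.1% GC, sits lowest at -1.38, and the 4 genes above 53% GC sit above 0.

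**Figure D5:**
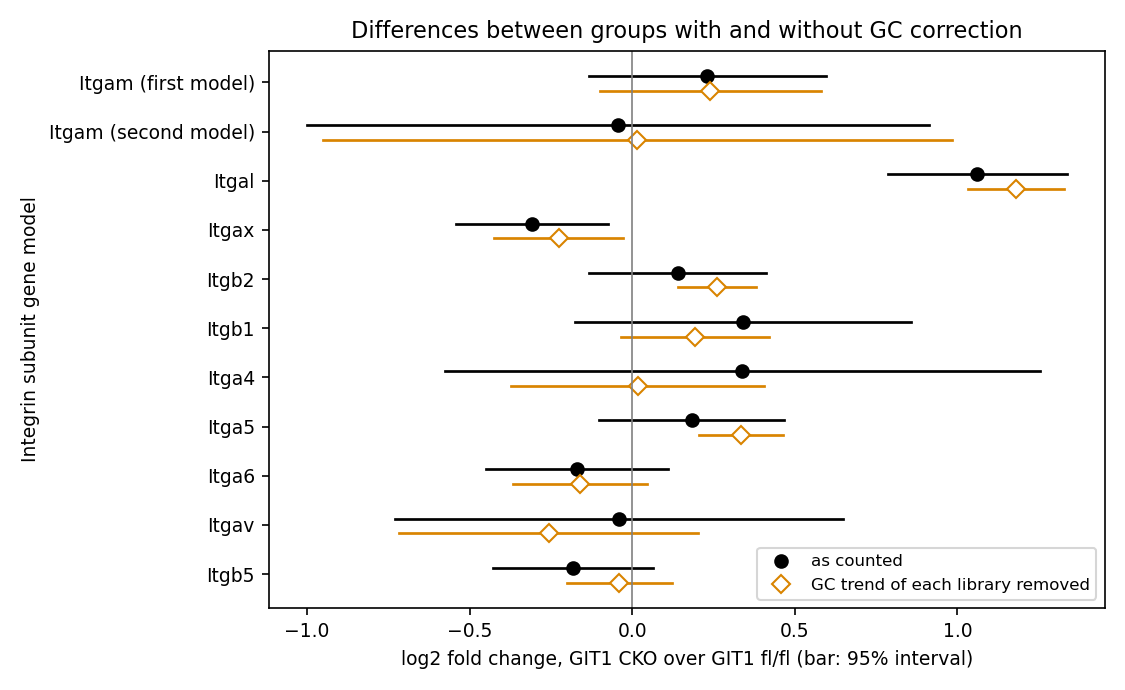
Log2 fold change of each integrin gene model, GIT1 CKO over GIT1 fl/fl, with its 95% interval (not adjusted for the number of genes), as counted (filled circle) and after removal of each library's GC trend (open diamond). Itgal lies at 1.06 and 1.18, away from all others, and Itga4 lies at 0.34 and 0.02.

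Beyond the 10 genes, 16 other integrin subunit genes were in the table and 11 of them were tested. None of the 11 passed in either direction, against 0.755% of all genes tested. At an unadjusted p under 0.05 there were 2 higher and 1 lower, against 17.5% of all genes in either direction. The median log2 fold change of the 11 was 0.19. Itgb7, which pairs with Itga4 in leukocytes that home to the gut, stood at 21.1, 19.7 and 19.5 CPM in GIT1 CKO, against 25.5, 32.9 and 26.3 CPM in GIT1 fl/fl libraries. All GIT1 CKO libraries were lower, with a log2 fold change of -0.49 (SE 0.128, adjusted p = 0.156 from edgeR), which passed under DESeq2 (adjusted p = 0.0338) and, at the edge of the threshold, with the GC trend removed. Itga8, a partner of Itgb1, stood at 12.0, 10.5 and 13.7 CPM in GIT1 CKO, against 8.59, 5.57 and 8.06 CPM in GIT1 fl/fl libraries, at 0.71 (SE 0.201, adjusted p = 0.177 from edgeR, and 0.0363 under DESeq2).

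Most of the other tested subunits were low. Itgb8, which activates TGFβ with Itgav, had 50, 76 and 29 counts in GIT1 CKO, against 0, 8 and 8 counts in GIT1 fl/fl libraries, and a log2 fold change of 2.27 (SE 0.854, adjusted p = 0.251 from edgeR). Itga9 stood at 41.1 to 42.6 CPM in GIT1 CKO, against 34.7 to 38.1 CPM in GIT1 fl/fl libraries, at 0.20 (adjusted p = 0.316 from edgeR). Itgb3, the osteoclast partner of Itgav, stood at 3.55 to 4.25 CPM in GIT1 CKO, against 3.39 to 4.24 CPM in GIT1 fl/fl libraries, at 0.12 (adjusted p = 0.727 from edgeR). Itga1, Itga3, Itga11, Itgb4, Itga2b and Itga10 were under 2.5 CPM in every library, with adjusted p of 0.394 to 0.810. Itga2, Itga7, Itgad and Itgae were too low to test, and Itgb6 had 0 counts in all 6 libraries.

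Of 36 tested genes whose proteins bind integrin tails or set their activity, none passed in either direction, with 4 higher and 5 lower at an unadjusted p under 0.05 and a median log2 fold change of -0.11. Over all genes tested, 0.755% passed and 17.5% were under that unadjusted p, in either direction. The 2 most expressed of the 36 were Tln1 and Fyb. Tln1, talin, stood at 909 to 978 CPM in GIT1 CKO, against 915 to 1177 CPM in GIT1 fl/fl libraries, at -0.12 (adjusted p = 0.575 from edgeR). Without GIT1 fl/fl replicate 2 it was at 0.01 and with the GC trend removed at 0.03. Fyb, an adaptor (ADAP) on the path to integrin activation in T cells, stood at 850, 853 and 879 CPM in GIT1 CKO, against 733, 712 and 742 CPM in GIT1 fl/fl libraries, at 0.24 (adjusted p = 0.200 from edgeR, and 0.0409 with the GC trend removed).

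Of 31 tested integrin ligands, 1 rose and none fell, with 5 higher and 3 lower at an unadjusted p under 0.05 and a median log2 fold change of 0.15. The shares of all genes tested were 0.755% passing and 17.5% under that unadjusted p, in either direction. The ligand that rose was Spp1, osteopontin, a ligand of αv integrins and Itga4. It stood at 1650, 1618 and 1805 CPM in GIT1 CKO, against 1114, 992 and 1020 CPM in GIT1 fl/fl libraries, all GIT1 CKO libraries above. Its log2 fold change was 0.70 (SE 0.0913, adjusted p = 0.0350 from edgeR), and 0.39 with the GC trend removed (adjusted p = 0.173). Left-out libraries moved its adjusted p to 0.199, 0.206 and 0.0908 without GIT1 CKO replicates 1, 2 and 3 and to 0.194 without GIT1 fl/fl replicate 3.

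The genes whose profile over the 6 libraries was nearest to that of a member were sought among 9138 tested genes with a mean log2 CPM of at least 3, by the root mean square difference of centred log2 CPM. Among the nearest to Itgal were Ccnd1, cyclin D1 (0.0822), and Jag1, a Notch ligand (0.0829). Ccnd1 stood at 89.4, 90.8 and 99.3 CPM in GIT1 CKO, against 44.1, 47.2 and 41.3 CPM in GIT1 fl/fl libraries. Ccnd1 and Jag1 had log2 fold changes of 1.08 and 0.95, a difference that the choice by likeness to Itgal in the same libraries largely fixes. Their adjusted p of 0.0153 and 0.0363 from edgeR passed, and neither did without GIT1 CKO replicate 1 (0.133 for Ccnd1 and 0.177 for Jag1), GIT1 CKO replicate 2 (0.143 for Ccnd1 and 0.251 for Jag1) or GIT1 fl/fl replicate 3 (0.128 for Ccnd1 and 0.190 for Jag1). Jag1 also did not pass without GIT1 CKO replicate 3 (0.0908) or under upper-quartile scaling (0.0620). For Itgax the nearest were Ccndbp1 (0.0274), Osbpl11 (0.0339) and Gm42047 (0.0352), at -0.29, -0.30 and -0.32, of which none passed (adjusted p of 0.205, 0.162 and 0.217 from edgeR).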

How the data were processed

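mRNA of 3 GIT1 CKO and 3 GIT1 fl/fl BMDM samples was sequenced. The deposited values are whole-number counts for each gene model in each library, made by the authors from reads trimmed with fastp 0.17.1 and aligned with HISAT2 2.1.0, with DESeq2 1.18.1 and R 3.4.3 also named in the submitters' processing notes. The counting tool, strand setting and build were not given in the sources used here. GENCODE M21 (GRCm38) held 52403 of the IDs, at the same start for 96.49%, and exon length and GC content were taken from there. The 6 normalized count columns and the authors' own fold changes, p-values and adjusted p-values were not used.

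The counts were tested with edgeR 4.0.16 under R 4.3.3 (filterByExpr with a minimum count of 10, TMM scaling, robust quasi-likelihood F-test, group as the only term). Benjamini-Hochberg adjustment ran over the 16287 models tested, and adjusted p under 0.05 was called. CPM are relative to the TMM-scaled total. Standard errors are the log2 fold change divided by the square root of F. Ratios were compared by exact permutation tests. The fit was tested on simulated data with a smaller spread between replicates than these data have, so that test does not cover their spread. Alternatives were RLE, upper-quartile and total-count scaling, DESeq2 1.42.0, limma-voom (limma 3.58.1), no filter, a filter of 1 CPM in 3 libraries, thinned counts, removal of the GC trend of each library (lowess, span 0.3), the replicate number as a block, summed Itgam models, and each library left out. The fit that leaves out X and Y genes and the order of levels by the longest transcript were added after the data were seen.

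The members, lists and tests were chosen with earlier results of these data known. Named are all members, every other tested integrin subunit, each called gene of a list or its 2 most expressed genes where none was called, and the 3 genes nearest in profile to the 2 members of smallest p. A gene that this rule selects is not reported here. Git1, Lyz2, Xist, the Y-linked genes, Cerkl and single markers were added as checks. A count of 0 allows up to 3 counts by counting error alone. No label ties the samples to separate animals, so p-values measure the spread between these samples. The sequences printed are from RefSeq and GENCODE.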

Additional observations from a re-analysis of the deposited data

How the results depend on the processing

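Of the settings tried, Itgal kept its direction in all 19, and its adjusted p from edgeR lost the threshold in 5, with log2 fold changes of 1.04 to 1.07 there. The number of member models called as higher was 1, and became 3 with the GC trend removed (Itgal, Itgb2 and Itga5) and 0 with the replicate block, with 0 to 1 when a library was left out. The number past the study's rule as higher was 1 to 2 when a library was left out. The count of all genes called was 123 of 16287 tested, against 1108 under DESeq2 and 807 of 16287 with the GC trend removed. It was 1 with the replicate block, 47 with the replicate block and the GC trend removed, and 1 to 1159 when a library was left out. Opposite signs appeared for the second Itgam model under total-count scaling (0.00011) and with the GC trend removed (0.016), and it ran from -0.44 to 0.31 when a library was left out. They appeared for Itgav under total-count scaling (0.0062) and with no filter (0.0014), and it ran from -0.26 to 0.19 when a library was left out. Tln1 was at 0.025 with the GC trend removed and at 0.025 with the replicate block as well, and ran from -0.20 to 0.0070 when a library was left out, and Itga10 ran from -0.24 to 0.40. The cause was not tested. The log2 differences of the 11 ratios and the sum of the Itgam models (0.12 to 0.23) stayed within the spread between replicates or on the same side of the threshold.

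No label pairs the samples by replicate number, and whether same-numbered samples shared a preparation was not tested. Deviations from the group mean of same-numbered samples correlated at -0.048, 0.040 and 0.0075 across genes, and not every sample correlated best with its own number. With the replicate block Itgal was at 1.07 (adjusted p = 0.187 from edgeR), and with the GC trend removed as well at 1.18 (adjusted p = 0.0362). The block also ended the calls of Spp1 (adjusted p = 0.237), Jag1 (0.237) and Ccnd1 (0.1804), and with the GC trend removed as well Spp1 was at 0.234, Jag1 at 0.0807 and Ccnd1 at 0.0413. Members had 1534 counts or more in each library, and Itgb8 and the other low subunits rest on few counts.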
